A study of Mus musculus with 6 samples.

Results

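The genes described here encode the heat shock proteins and their DnaJ partners, the chaperones that fold, refold and sort other proteins. Members were taken by symbol: every probe besides controls whose transcript accession named a gene beginning Hsp90, Hsph, Hspa, Hspb, Hspd, Hspe or Dnaj in a RefSeq table of mouse assembly GRCm38.p6, with Hspbap1 and Hspbp1 left out. This gave 71 genes on 125 probes, of 22815 genes with a symbol on the array, and 65 of the 71 passed the filter on dim probes that left 14701 genes for testing. By family they were 3 Hsp90 genes, 1 Hsph gene, 13 Hspa genes, 8 Hspb genes, Hspd1 and Hspe1, 4 Dnaja genes, 12 Dnajb genes and 28 Dnajc genes.

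Hearts came from 6 male C57BL6 mice aged 10 weeks. All had been starved for 16 h and given lipopolysaccharide (LPS, bacterial endotoxin) at 20 mg/kg into the peritoneum. Of these, 3 were treated with recombinant human thrombomodulin (rhTM), related to the endothelial receptor that turns thrombin towards activating protein C, and 3 with saline, at 3 h and 24 h, and heart RNA was taken at 30 h. Each mouse had 1 Agilent 1-colour array, and since both groups had received LPS, every change below is rhTM against saline after LPS and starvation.

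Hsp70 proteins (Hspa) hold unfolded stretches of a client in a cycle driven by ATP. DnaJ proteins, through the J domain that names them, bring clients and start ATP hydrolysis, and the Hsp110 relatives Hspa4, Hspa4l and Hsph1 release the nucleotide so that the cycle can restart. Hsp90 finishes signalling proteins such as kinases and steroid receptors, the small heat shock proteins (Hspb) hold unfolding proteins without ATP and are abundant in muscle, and Hspd1 with its lid Hspe1 forms the folding chamber of the mitochondrial matrix. Many of these genes are switched on by the factor HSF1 when misfolded protein accumulates, and those of the endoplasmic reticulum (ER) by the unfolded protein response.

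Of 65 members tested, 1 fell with rhTM and 0 rose, in a comparison in which limma called 2.41% of all genes tested lower and 2.75% higher (5.17% either way, adjusted p under 0.05). The gene that fell was Hspa4. At an unadjusted limma p under 0.05 there were 9 members lower and 7 higher, where 15.6% and 15.1% of all genes lay. In 11 members all rhTM arrays lay below all saline arrays and in 6 above them, against 18.7% and 17.0% of all genes. The median change was -0.02 over the members and 0.01 over all genes tested, on the log2 scale, and the median size of a change without its sign was 0.26 for members and 0.46 for all genes. Changes of members ran from -1.09 to 1.69, 45 of the 65 were smaller than 0.5, and the SE of a member's change was 0.25 at the median. Dnajc5b, counted as higher both at the unadjusted p and without overlap, passed the filter on dim probes only through the rhTM group in which it was higher, so these counts are descriptions. Without saline 3 limma called 6 members higher and 10 lower, where 20.5% and 19.1% of all genes were called. Without rhTM 3 it called 1 and 1, where 2.60% and 3.48% of all genes were called. Without any 1 of the other 4 arrays it called 0 members, in fits that called at most 55 genes higher and 3 lower in all, so these say nothing about the members.

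**Figure D1:**
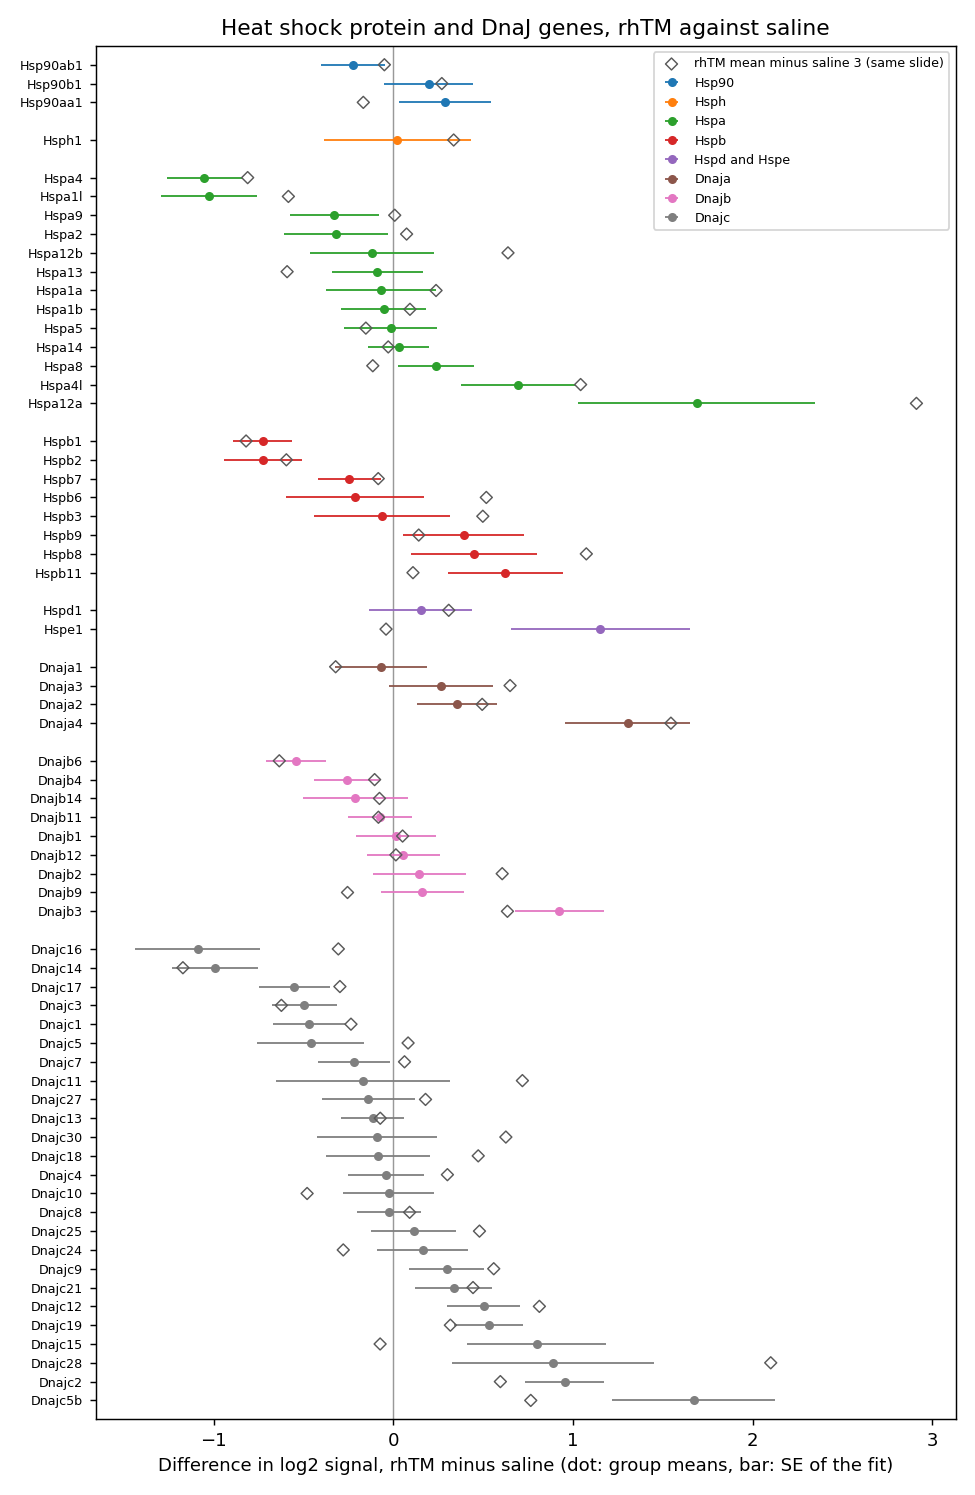
Change of each of the 65 tested members, grouped by family down the page. The x axis is the difference in log2 signal, rhTM minus saline; dots are differences of group means (n = 3 each), bars the SE of the fit, and open diamonds the rhTM mean minus saline 3, the saline array on the same slide. Most bars reach or lie near 0, Hspa4 (-1.05) is the 1 called gene, and for Hspe1, Dnajc15 and Dnajc5 the diamond lies near 0 (-0.04, -0.07 and 0.08).

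Values below are log2 signals of the scanner's processed intensity relative to the 75th percentile of that array, and a change is the rhTM mean less the saline mean, given ± its SE (n = 3 and 3). Adjusted p-values come from limma over all 14701 genes. The 75th percentile was 412 to 466 intensity units on the rhTM arrays and 394 to 732 on the saline arrays, 54.8% to 62.8% of spots were well above background, and 0 were saturated. Slide 1 carried saline 1 and 2, while slide 2 carried saline 3 together with all rhTM arrays, and some changes are therefore also given against saline 3 alone. A fit blocked on slide gives the same change, since slide 1 held no rhTM array, so its group effect rests on saline 3 alone. Against that array 43 of the 65 members kept the direction of their change and 22 turned it. Cardiomyocyte markers, 10 of 10 well above background on all arrays and 1 of them (Pln) called higher, averaged 7.92, 7.89 and 7.29 in rhTM 1, 2 and 3, against 7.38, 7.56 and 6.54 in saline 1, 2 and 3. Neutrophil markers, 7 of 8 with a probe and 6 well above background on all arrays, averaged -2.87, -3.51 and 2.06 in rhTM 1, 2 and 3, against 0.44, 1.21 and 3.47 in saline 1, 2 and 3. Endothelial markers averaged 1.80, 1.59 and 1.45 in rhTM 1, 2 and 3, against 2.24, 2.21 and 1.52 in saline 1, 2 and 3. The part of any of these in the changes below was not tested, and in whole hearts fewer cells of a type and less RNA per cell cannot be told apart.

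Values of Hspa4, Hspb1 and Dnajb6 were apart between rhTM hearts and saline hearts. Hspe1 was lower in saline 1 and 2 than on the other arrays, unlike its divergent neighbour Hspd1. Promoter stretches of Hspa4, Hspb1, Dnajb6 and Hspe1 are shown. Each is the 120 bases before the RefSeq start site in GRCm38.p6, 5′ to 3′ on the gene's strand, at chr1:55088028-55088147 (plus strand) for Hspe1, chr5:135887799-135887918 (plus) for Hspb1, chr5:29735778-29735897 (plus) for Dnajb6 and chr11:53300480-53300599 (minus) for Hspa4. Capitals mark the letters GAANNTTC, the inverted repeat at which HSF1 binds, and a longer form with 3 such units, GAA and TTC alternating with NN between them.
Hspe1: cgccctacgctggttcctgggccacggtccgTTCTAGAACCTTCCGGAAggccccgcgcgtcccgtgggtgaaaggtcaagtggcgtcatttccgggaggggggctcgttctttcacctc
Hspb1: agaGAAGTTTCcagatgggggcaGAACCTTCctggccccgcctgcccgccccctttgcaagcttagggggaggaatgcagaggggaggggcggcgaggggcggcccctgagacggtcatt
Dnajb6: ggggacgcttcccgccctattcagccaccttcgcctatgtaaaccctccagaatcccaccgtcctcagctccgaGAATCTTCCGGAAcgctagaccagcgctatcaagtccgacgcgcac
Hspa4: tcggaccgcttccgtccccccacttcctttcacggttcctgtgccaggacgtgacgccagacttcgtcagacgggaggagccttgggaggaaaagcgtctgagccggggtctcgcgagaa
The Hspe1 stretch is also part of the Hspd1 promoter read from the other strand, since 215 bases separate the RefSeq start sites of these genes. No match in Hspa4 says only that these letters are not in its window.

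Over windows of 250 bases before to 50 after a start, searched on both strands, 57 of the 71 members had a RefSeq window. GAANNTTC occurred in 14 of the 57 (24.6%), against 9.04% of 27025 genes, and the longer form, which contains GAANNTTC, in 4 of the 57 (7.02%: Dnajb6, Hspd1, Hspe1 and Hsph1), against 0.662% of all genes. The ER stress element (CCAAT, then any 9 bases, then CCACG) was found in Hspa5, Hsp90b1 and Dnajc3 (5.26% of the 57), against 0.137% of all genes. The windows of the tandem genes Hspa1a and Hspa1b were the same at 296 of 300 bases, and those of Hspd1 and Hspe1 shared 285. Matches in such a pair are counted for both genes and are not separate. These matches describe letters and no test was made of them. Of the 4 with the longer form, the changes were -0.54 for Dnajb6, 0.02 for Hsph1, 0.15 for Hspd1 and 1.15 for Hspe1, none past the test.

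Among the Hsp70 proteins and their Hsp110 relatives, 1 of 13 Hspa genes passed the test and the 1 Hsph gene did not. Of all genes tested, 2.41% were called lower and 2.75% higher. The median over the Hspa genes was -0.07. Hspa4, the Hsp110-type nucleotide exchange factor also called Apg-2, had log2 signals of 3.58, 3.84 and 3.86 in rhTM 1, 2 and 3, against 5.07, 4.80 and 4.57 in saline 1, 2 and 3. In scanner units these were 5557, 6661 and 6001 in rhTM hearts and 24540, 18690 and 9382 in saline hearts. All rhTM values lay below all saline values. The gene fell by 1.05 ± 0.21, with a signal in rhTM hearts 0.483 times that in saline hearts (adjusted p = 0.0446). A second probe of Hspa4 differed by -0.92, with the groups likewise apart. Against saline 3 the change was -0.81, which a fit blocked on slide also gave, without calling the gene. In limma fits the call was lost when replicate number was blocked (adjusted p = 0.0651) and without rhTM 3 (adjusted p = 0.0583). Hspa4 was called without saline 3 (adjusted p = 0.00667), in a fit that called 19.1% of all genes lower. Fits without any 1 of the other arrays did not call it (adjusted p 0.121 to 0.209), but they called at most 55 genes higher and 3 lower in all. Of its relatives, Hspa4l differed by 0.69 ± 0.32 (adjusted p = 0.192) and Hsph1 by 0.02 ± 0.41 (adjusted p = 0.973).

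The inducible Hsp70 genes Hspa1a and Hspa1b, the classic products of the heat shock response, showed no detectable difference. Hspa1a was measured at -0.28, 0.24 and -0.73 in rhTM 1, 2 and 3, against -0.18, 0.11 and -0.49 in saline 1, 2 and 3. Hspa1b was measured at -1.20, -0.71 and -1.30 in rhTM 1, 2 and 3, against -1.13, -0.76 and -1.16 in saline 1, 2 and 3. Both groups spread over the same range, and the changes were -0.07 ± 0.30 and -0.05 ± 0.24 (adjusted p = 0.895 and 0.897). The coding sequences of this pair are nearly the same, so that their probes may not tell the genes apart.

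Hspa8, the constitutive cytosolic Hsp70, lay at 6.08, 6.06 and 6.15 in rhTM 1, 2 and 3, against 5.62, 5.75 and 6.21 in saline 1, 2 and 3. Its change of 0.24 ± 0.21 did not pass (adjusted p = 0.468), and its 3 other probes differed by -0.05 to 0.01. Hspa5, the ER chaperone BiP, had 6.07, 5.79 and 5.27 in rhTM 1, 2 and 3, against 5.51, 5.80 and 5.86 in saline 1, 2 and 3. The groups overlapped and the change was -0.01 ± 0.26 (adjusted p = 0.975). Hspa9, the mitochondrial Hsp70 mortalin, differed by -0.33 ± 0.25 (adjusted p = 0.389), and by 0.01 against saline 3.

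Hspa1l, an Hsp70 gene of spermatids, was read at -2.59, -2.35 and -2.28 in rhTM 1, 2 and 3, against -1.39, -0.93 and -1.82 in saline 1, 2 and 3. The groups were apart and the change was -1.03 ± 0.27, without passing (adjusted p = 0.0731). Hspa12a, an atypical Hsp70, gave the largest positive change of any tested member, with 1.77, 1.34 and 0.03 in rhTM 1, 2 and 3, against -0.29, 0.22 and -1.87 in saline 1, 2 and 3. Here rhTM 3 lay below saline 2, so the groups overlapped. The change was 1.69 ± 0.66 (adjusted p = 0.145), 2.91 against saline 3, and blocking on the replicate number took it past the threshold (adjusted p = 0.0465), in a fit that called 2.43% of all genes higher and 1.65% lower. Hspa12b, its endothelial relative, differed by -0.12 ± 0.35, Hspa2, a testis-enriched Hsp70, by -0.32 ± 0.29, Hspa13, a microsomal Hsp70-like ATPase, by -0.09 ± 0.25, and Hspa14, which works at the ribosome, by 0.03 ± 0.17 (adjusted p 0.472 to 0.918).

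None of the 3 Hsp90 genes passed (limma, 0 also at an unadjusted p under 0.05, where 15.6% of all genes lay lower and 15.1% higher). Their median change was 0.20, against -0.05 versus saline 3. Hsp90aa1, the stress-inducible cytosolic form, read 3.99, 3.80 and 3.65 in rhTM 1, 2 and 3, against 3.18, 3.41 and 3.98 in saline 1, 2 and 3. Hsp90ab1, the constitutive cytosolic form, read 6.89, 6.83 and 6.98 in rhTM 1, 2 and 3, against 7.27, 7.15 and 6.95 in saline 1, 2 and 3. For both genes saline 3 lay within the range of the rhTM arrays while saline 1 and 2 lay outside it, below for Hsp90aa1 and above for Hsp90ab1. A second, dimmer probe of Hsp90aa1 did not show this. It read 3.03, 2.97 and 2.57 in rhTM 1, 2 and 3, against 2.77, 2.96 and 2.94 in saline 1, 2 and 3, a change of -0.03. On the brightest probes Hsp90aa1 and Hsp90ab1 differed by 0.29 ± 0.26 and -0.22 ± 0.18, and Hsp90b1, the ER form Grp94, by 0.20 ± 0.25 (adjusted p 0.418 to 0.607).

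Of 8 small heat shock protein genes 5 lay lower and 3 higher, with a median change of -0.14, and 0 passed in the limma fit. At an unadjusted limma p under 0.05 there were 2 lower and 0 higher, against 15.6% and 15.1% of all genes. Hspb1, the small heat shock protein Hsp27 that binds actin and unfolding proteins, had 7.41, 7.39 and 7.44 in rhTM 1, 2 and 3, against 8.11, 8.08 and 8.23 in saline 1, 2 and 3. All rhTM arrays lay below all saline arrays. Its change was -0.73 ± 0.16, 0.604 times the saline signal, and narrowly missed the threshold (adjusted p = 0.0547). Against saline 3 it was -0.82. A limma fit blocked on slide called 1 member, Hspb1, where 1.95% of all genes were called lower and 3.83% higher. That fit did not call Hspa4, its group effect rests on saline 3 alone, and its calls are not used.

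Hspb2, a muscle small heat shock protein that binds myotonic dystrophy kinase, read 5.44, 5.67 and 6.06 in rhTM 1, 2 and 3, against 6.52, 6.51 and 6.32 in saline 1, 2 and 3. The groups were again apart, with a change of -0.72 ± 0.22 (adjusted p = 0.0935). Hspb7, the cardiovascular small heat shock protein, read 8.87, 8.89 and 8.87 in rhTM 1, 2 and 3, against 9.14, 9.26 and 8.96 in saline 1, 2 and 3. All rhTM arrays lay below all saline arrays by a small margin, and the change was -0.24 ± 0.17 (adjusted p = 0.362), or -0.08 against saline 3. A second, dimmer probe of Hspb7 differed by -0.91, with rhTM values of 4.32 to 4.55 just above the 4.24 of saline 3 and well below the 5.66 and 6.05 of saline 1 and 2.

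Hspb8, which works with the co-chaperone Bag3 in clearing damaged sarcomere proteins, differed by 0.45 ± 0.35 (adjusted p = 0.405). Hspb6, the phosphorylated muscle protein Hsp20, differed by -0.21 ± 0.39, Hspb3 by -0.06 ± 0.38, Hspb9, known from testis, by 0.39 ± 0.34, and Hspb11, the intraflagellar transport protein Ift25, by 0.62 ± 0.32 (adjusted p 0.231 to 0.923). Cryab, the alpha-B crystallin that belongs to the same protein family under another name, lay at 8.54, 8.70 and 9.004 in rhTM 1, 2 and 3, against 9.09, 9.22 and 8.92 in saline 1, 2 and 3. It did not pass (-0.33 ± 0.20, adjusted p = 0.304).

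**Figure D2:**
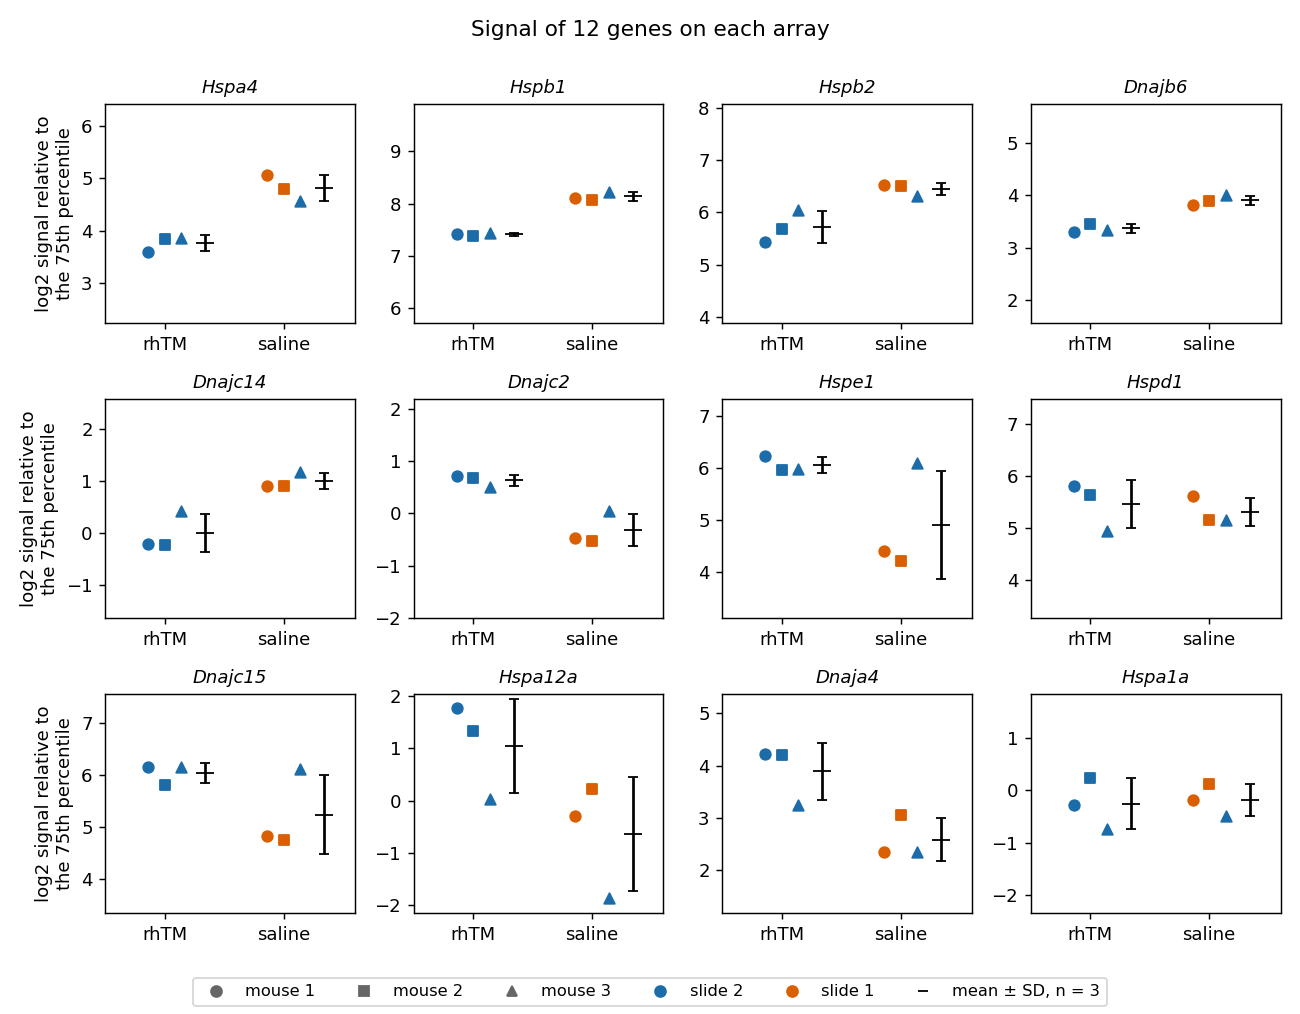
Log2 signal relative to the array's 75th percentile (y axes, all spanning the same number of units) for 12 members on every array, rhTM left and saline right. Symbols stand for mouse 1, 2 and 3 of each group (different mice), colours for the slide, and black bars for the mean ± SD (n = 3). Groups are apart for Hspa4, Hspb1, Hspb2, Dnajb6, Dnajc14, Dnajc2 and Dnaja4, saline 3 sits with the rhTM arrays for Hspe1 and Dnajc15, and Hspa12a, Hspd1 and Hspa1a overlap.

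Hspe1, of the mitochondrial chaperonin, was lower in saline 1 and 2, on slide 1, than on the other arrays. This gene, the lid of the chamber, read 6.23, 5.96 and 5.98 in rhTM 1, 2 and 3, against 4.40, 4.21 and 6.10 in saline 1, 2 and 3. Saline 3 lay within the rhTM range and saline 1 and 2 lay far below it. Its other probes showed the same order: the dimmest had 4.10, 3.77 and 3.74 in rhTM 1, 2 and 3, against 0.14, -0.16 and 3.93 in saline 1, 2 and 3. The change was 1.15 ± 0.50 over all arrays (adjusted p = 0.173) and -0.04 against saline 3. As saline 3 was the only saline array on slide 2, slide and mouse cannot be told apart for Hspe1. Hspd1, the chamber subunit encoded next to it in the opposite direction, read 5.81, 5.63 and 4.95 in rhTM 1, 2 and 3, against 5.62, 5.16 and 5.15 in saline 1, 2 and 3. The groups overlapped without a split by slide, and the change was 0.15 ± 0.29 (adjusted p = 0.740).

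Other mitochondrial members did not all show the same order of arrays. Dnajc15, an inner-membrane J protein that restrains respiratory complex I, read 6.15, 5.81 and 6.15 in rhTM 1, 2 and 3, against 4.84, 4.76 and 6.11 in saline 1, 2 and 3. As for Hspe1, saline 3 lay with the rhTM arrays, and the change was 0.80 ± 0.39 (adjusted p = 0.209) but -0.07 against saline 3. Dnajc19, the import-motor subunit whose loss causes a dilated cardiomyopathy with ataxia in humans, read 5.72, 5.50 and 5.53 in rhTM 1, 2 and 3, against 5.05, 4.83 and 5.26 in saline 1, 2 and 3. On each of its 3 probes all rhTM arrays lay above all saline arrays (changes 0.33 to 0.94), and the brightest probe did not pass (adjusted p = 0.129). Against saline 3 the brightest probe differed by 0.32, the probe at 0.94 by 0.22 and the probe at 0.33 by 0.58. Dnaja3, the matrix J protein Tid1, differed by 0.26 ± 0.29 (adjusted p = 0.551).

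Saline 3 lay within the rhTM range with saline 1 and 2 together on one side of it for 9 of 65 members (Dnajb4, Dnajc5, Dnajc7, Dnajc15, Hsp90aa1, Hsp90ab1, Hspa9, Hspb11 and Hspe1), against 15.7% of all genes tested (7.39% with saline 1 and 2 above, 8.35% with them below). For 29 of the 65 the array numbered 3 was the lowest of both groups, against 26.9% of all genes, and for 9 it was the highest of both, against 23.6%. Among other members the change turned to -0.11 for Hspa8, 0.64 for Hspa12b, 0.52 for Hspb6 and -0.25 for Dnajb9 when only that saline array was used. It was 1.07 for Hspb8, 0.11 for Hspb11 and 2.101 for Dnajc28 in that comparison. The 29 whose array 3 was lowest include Hspd1, Hsph1, Hspa1a, Hspa1b, Hspa12a, Hspb6, Hspb8 and Dnaja4. The mean of the cardiomyocyte markers was likewise lowest in rhTM 3 and saline 3, and that of the neutrophil markers highest in both. These shares are descriptions, and the members were not tested against other genes.

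**Figure D3:**
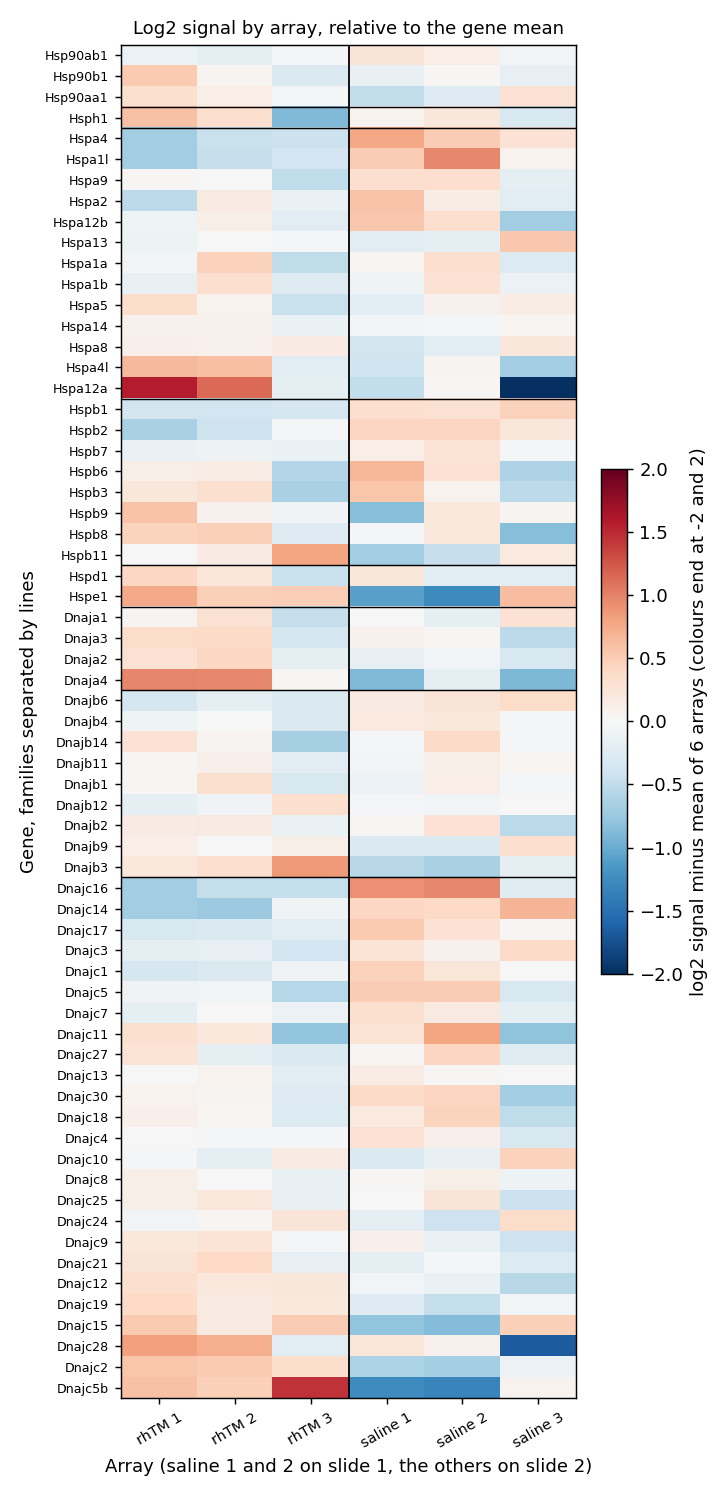
Log2 signal of the 65 tested members on each array, minus the gene's mean over the 6 arrays (colour, ending at -2 and 2). Columns are arrays, rhTM left of the line and saline right of it, and rows are genes ordered by family and change. Hspa4, Hspb1, Dnajb6 and Dnajc14 are blue in all rhTM columns and red in all saline columns, while Hspe1, Dnajc15 and Hspa12a differ between saline 3 and the other saline columns.

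Of the 4 Dnaja genes, the type that carries a zinc-finger region and hands clients to Hsp70, 0 passed. At an unadjusted limma p under 0.05 there were 1 higher and 0 lower, against 15.1% and 15.6% of all genes. Dnaja4, a cytosolic member enriched in heart and skeletal muscle, read 4.21, 4.20 and 3.25 in rhTM 1, 2 and 3, against 2.35, 3.06 and 2.34 in saline 1, 2 and 3. All rhTM arrays lay above all saline arrays, though rhTM 3 was close to saline 2. The change was 1.31 ± 0.35, 2.47 times the saline signal (adjusted p = 0.0761), and a second, dimmer probe differed by 0.72 with the groups overlapping. Dnaja1 and Dnaja2, the general cytosolic partners of Hspa8, differed by -0.07 ± 0.26 and 0.36 ± 0.22 (adjusted p = 0.875 and 0.305).

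Among the Dnajb genes 9 of 12 were tested and 0 passed, with a median change of 0.02. At an unadjusted limma p under 0.05 there were 1 higher and 1 lower, against 15.1% and 15.6% of all genes. Dnajb1, the Hsp40 that is induced together with Hspa1a and helps dissolve aggregates, read 3.28, 3.58 and 2.94 in rhTM 1, 2 and 3, against 3.14, 3.40 and 3.21 in saline 1, 2 and 3. The groups overlapped fully, with a change of 0.02 ± 0.22 (adjusted p = 0.967). Dnajb6, which keeps aggregation-prone proteins soluble and is mutated in a human limb-girdle muscular dystrophy, read 3.30, 3.46 and 3.34 in rhTM 1, 2 and 3, against 3.82, 3.90 and 4.001 in saline 1, 2 and 3. All rhTM arrays lay below all saline arrays, and the change of -0.54 ± 0.17 did not pass (adjusted p = 0.100). Its 4 other probes, filed under other transcripts, differed by -0.27 to 0.12.

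Dnajb3, a J protein of developing sperm, was read at -3.72, -3.59 and -3.08 in rhTM 1, 2 and 3, against -4.49, -4.58 and -4.10 in saline 1, 2 and 3. The groups were apart, and the change was 0.93 ± 0.25 (adjusted p = 0.0767). These are low signals on 1 probe. Dnajb4, a cytosolic partner related to Dnajb1, differed by -0.26 ± 0.18, and its 2 other probes went opposite ways (-0.55 and 0.29). Dnajb2, a J protein best known from neurons, differed by 0.14 ± 0.26, and the ER-membrane proteins Dnajb12 and Dnajb14 by 0.06 ± 0.20 and -0.21 ± 0.29 (adjusted p 0.645 to 0.869).

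The J proteins of the ER, which serve BiP, did not pass in any case. Dnajb9, induced by the unfolded protein response, differed by 0.16 ± 0.23, Dnajb11, which binds BiP clients in the lumen, by -0.07 ± 0.18, and Dnajc10, a disulfide reductase of ER-associated degradation, by -0.02 ± 0.25 (adjusted p 0.652 to 0.955). Dnajc3, an ER co-chaperone also known as P58(IPK), read -0.31, -0.30 and -0.52 in rhTM 1, 2 and 3, against 0.15, -0.04 and 0.24 in saline 1, 2 and 3. The groups were apart, with a change of -0.49 ± 0.18 that did not pass (adjusted p = 0.130). Dnajc1, an ER-membrane J protein that contacts the ribosome, had -0.47 ± 0.20 with the groups apart (adjusted p = 0.171).

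Over all 25 tested Dnajc genes, the J proteins with the most varied tasks, 0 passed and the median change was -0.04. At an unadjusted limma p under 0.05 there were 4 higher and 4 lower, against 15.1% and 15.6% of all genes. Dnajc2, the ribosome-associated J protein Mpp11 or zuotin, read 0.72, 0.68 and 0.51 in rhTM 1, 2 and 3, against -0.47, -0.53 and 0.04 in saline 1, 2 and 3. All rhTM arrays lay above all saline arrays, and the change was 0.95 ± 0.22 (adjusted p = 0.0559), or 0.60 against saline 3. Dnajc14, an ER-membrane J protein known for carrying the dopamine D1 receptor to the surface, read -0.20, -0.23 and 0.42 in rhTM 1, 2 and 3, against 0.91, 0.90 and 1.17 in saline 1, 2 and 3. It lay lower on every rhTM array, with a change of -0.99 ± 0.24 (adjusted p = 0.0637), or -1.17 against saline 3.

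Dnajc5b, a testis form of cysteine-string protein, read -3.48, -3.58 and -2.63 in rhTM 1, 2 and 3, against -5.32, -5.39 and -3.995 in saline 1, 2 and 3. The probe was above background in 3 of 3 rhTM hearts and 1 of 3 saline hearts, so it entered the test only through the group in which it was higher. Its change of 1.67 ± 0.45, or 0.77 against saline 3, is therefore given as a description. Dnajc5b is among the 4 Dnajc genes counted as higher at the unadjusted limma p, so that count too is only a description. Dnajc16, an ER J protein, read -1.01, -0.81 and -0.80 in rhTM 1, 2 and 3, against 0.58, 0.63 and -0.57 in saline 1, 2 and 3. Saline 3 lay close to the rhTM arrays and saline 1 and 2 well above them, and the change was -1.09 ± 0.35 (adjusted p = 0.104) but -0.31 against saline 3.

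Dnajc17, linked to splicing, and Dnajc12, a partner of the aromatic amino acid hydroxylases, differed by -0.55 ± 0.20 and 0.50 ± 0.20 with the groups apart (adjusted p = 0.125 and 0.154). Dnajc28 differed by 0.89 ± 0.56 (adjusted p = 0.310), with saline 3 at -1.29 far below the other 5 arrays (0.16 to 1.19). Dnajc5, the cysteine-string protein of synaptic vesicles and secretion, differed by -0.46 ± 0.30 and Dnajc7, which passes clients between Hsp70 and Hsp90, by -0.22 ± 0.20 (adjusted p = 0.318 and 0.477). The remaining tested Dnajc genes, Dnajc4, Dnajc8, Dnajc9, Dnajc11, Dnajc13, Dnajc18, Dnajc21, Dnajc24, Dnajc25, Dnajc27 and Dnajc30, differed by -0.17 to 0.34, with overlapping groups and adjusted p 0.313 to 0.939.

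The 6 members left untested were Dnajb7, Dnajb8, Dnajb13, Dnajc5g, Dnajc6, the clathrin-uncoating auxilin of neurons, and Dnajc22. Their probes were not well above background on any array, except that of Dnajb8 on 1 rhTM array. Several of these are known from testis. Of the male germ cell markers Acr stood well above background in all 6 hearts and Odf1 in none, and the mean of the 6 markers was -4.92 to -4.51 in rhTM hearts and -4.91 to -4.56 in saline hearts.

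Several probes measured 34 of the 71 members, and 32 of them had another probe measured above background throughout at least 1 group. Of those 47 other probes 30 differed in the direction of the brightest one and 17 in the opposite direction, and the 2 changes differed by 0.28 at the median. Where the brightest probe differed by at least 0.5, 11 of 12 other probes went the same way. Wide gaps were seen in Hspe1 (1.15 and 2.57), Dnajc8 (-0.02 and 1.32), Dnaja1 (-0.07 and 1.15) and Dnajc13 (-0.11 and 0.84), where the other probe was a dimmer one. The Dnaja1 probe at 1.15 met the background criterion in 2 of 3 saline hearts, and in Dnajc27 1 other probe in 0 of 3. Both of these probes counted as measured only through the rhTM group, in which they were higher. For the genes with wide gaps the value depends on the probe chosen.

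**Figure D4:**
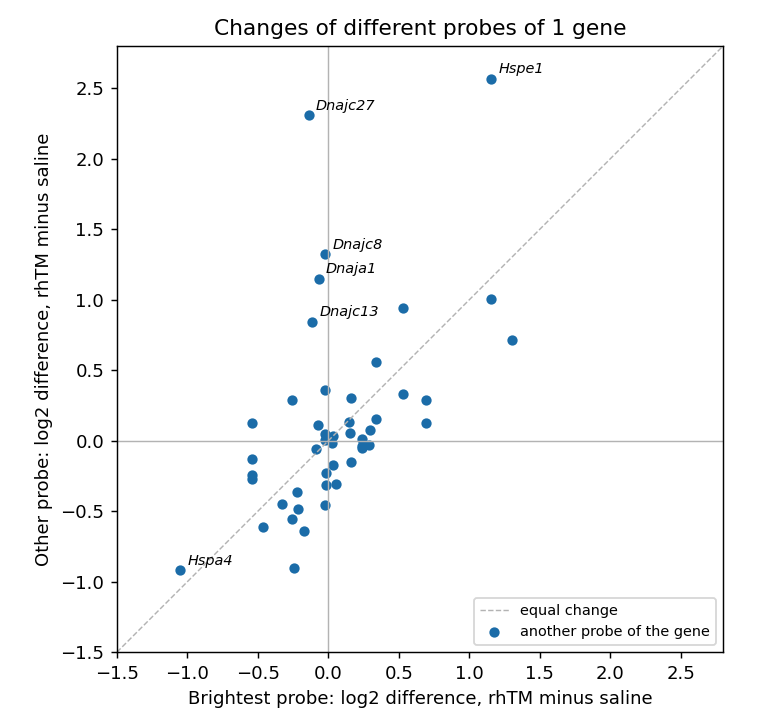
Change of the brightest probe of a member (x axis) against that of each of its other measured probes (y axis, 47 probes of 32 genes), both as log2 difference, rhTM minus saline; the dashed line marks equal changes. Hspa4 (-1.05 and -0.92) lies near the line, and Dnajc27, Dnajc8, Dnaja1, Dnajc13 and 1 probe of Hspe1 lie far above it.

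Partners of these chaperones outside the families were read from 4 lists of genes. In each limma called 0 genes, where it called 2.41% of all genes lower and 2.75% higher. In the list of heat shock factors and Hsp70 or Hsp90 co-chaperones, 32 of 36 genes were tested, the median change was -0.07, and 6 were lower and 0 higher at an unadjusted p under 0.05. Of all genes tested, 15.6% were lower and 15.1% higher at that p. Unc45a, a myosin and Hsp90 co-chaperone, differed by -0.86 ± 0.22, Stip1 (Hop), which joins Hsp70 to Hsp90, by -0.82 ± 0.28 (-0.25 with slide blocked), and Fkbp5, a glucocorticoid-induced immunophilin of Hsp90, by -1.58 ± 0.56 (adjusted p 0.0680 to 0.123). In the list of the cytosolic chaperonin TRiC and prefoldin all 15 genes were tested and the median was -0.13. At that unadjusted p 3 were lower and 1 higher, against the same shares of all genes. The TRiC subunits Cct3 and Cct2 differed by -1.26 ± 0.29 and -0.79 ± 0.22, and the prefoldin subunit Pfdn1 by 1.06 ± 0.25. Each had the groups apart (adjusted p 0.0561 to 0.0798). With slide blocked the changes were -0.65 for Cct3, -0.70 for Cct2, 0.60 for Pfdn1, -0.5 for Unc45a and -2.15 for Fkbp5.

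The list of ER folding and unfolded protein response genes (23 of 25 tested) had a median of -0.23, with 5 lower and 2 higher at an unadjusted p under 0.05. Of all genes tested, 15.6% were lower and 15.1% higher at that p. Syvn1, the ubiquitin ligase of ER-associated degradation, came closest with -0.83 ± 0.18 (adjusted p = 0.0505). Creld2, an ER stress-induced secreted protein, had -0.56 ± 0.17 (adjusted p = 0.0949). Xbp1, a transcription factor of the unfolded protein response, had -0.84 ± 0.26 (adjusted p = 0.100). Herpud1, a membrane protein of ER-associated degradation, went in the other direction with 0.79 ± 0.26 (adjusted p = 0.106). With slide blocked, which leaves saline 3 alone for comparison, the changes were -1.27 for Xbp1 and 1.26 for Herpud1. The change farthest from 0 in this list was positive (2.57), in Derl3, a derlin of the same pathway, at -1.36, -0.40 and -1.15 in rhTM 1, 2 and 3, against -4.47, -1.58 and -4.58 in saline 1, 2 and 3. Its groups were apart, but 2 of 3 saline hearts were above background, so it too entered through the rhTM group. Derl3 and the count of 2 higher genes, which includes it, are therefore only described. Herpud1 and Derl3 were named after their values were seen. Of 14 mitochondrial chaperones and proteases 13 were tested, with a median of -0.01. At an unadjusted p under 0.05 there were 1 lower and 0 higher, against the same shares of all genes. Lowest by p were the intermembrane protease Htra2 (-0.44 ± 0.18), the import-motor subunit Pam16 (0.47 ± 0.33) and the disaggregase Clpb (-0.47 ± 0.34). Their adjusted p was 0.154 to 0.363. With slide blocked the changes were -0.34, -0.21 and 0.26, so Pam16 and Clpb turned direction.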

How the data were processed

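Heart RNA of 6 mice was measured on 1-colour arrays, and the authors deposited scanner files of intensity per spot. The processed signal used here is background-corrected and not yet normalised between arrays; per the file headers Agilent Feature Extraction 10.7.3.1 wrote it, with an mm9 grid, whereas version 9.1 appears in the submitters' processing notes. Each array was put on the log2 scale and its 75th percentile over non-control spots subtracted. Spots sharing a probe were averaged, 368 of 56605 probes were dropped for outlier flags, and 32789 of the rest received a symbol through their accession. The brightest probe on average stood for a gene, and a gene was tested if that probe met the scanner's well-above-background criterion throughout rhTM 1 to 3 or throughout saline 1 to 3. Probe coordinates are not given because the builds of grid and gene table differ.

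Groups follow the sample titles. limma 3.58.1 (R 4.3.3; lmFit then eBayes, with no term besides group) gave p-values, adjusted by Benjamini-Hochberg over all genes tested, with a threshold of 0.05; the script was tested on simulated data. The rule for named genes took called members, the 4 lowest p-values of each family, a list of core chaperones, and the 3 lowest p-values of each outside list. Cryab, Hspb9, Dnajb12, the remaining Dnajc genes and the untested members were added after their values were seen. Members, lists and tests were chosen with earlier results of these data known. Alternatives covered scaling, background correction, filters, averaged probes, array weights, left-out arrays, slide and replicate-number blocks, and the deposited table of log2 values. As to pairing, the labels give separate mice with shared numbers and nothing more. Across genes, deviations from the group mean correlated at 0.319, 0.235 and 0.372 between same-numbered arrays 1, 2 and 3, which meets the limit set for pairing, although rhTM 2 correlated more with saline 1 (0.314) than with saline 2. All reported values come from the fit without this block, and the blocked fit is an alternative, named where it changes a call. Protein features were planned and not analysed here.

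For the deposited log2 table the sources used here state neither scale, centring nor direction. Set against the scanner values, its columns were log2 values running the same way, offset by a baseline per probe that arrays of 1 slide shared (SD of the difference at most 1.89e-05) and arrays of different slides did not (SD 0.825); what it was centred on stays unknown. Its column medians were -0.08, 0.03 and 0.08 for rhTM 1, 2 and 3 and -0.02, -0.16 and 0.10 for saline 1, 2 and 3. The number of arrays limits the precision.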

Additional observations from a re-analysis of the deposited data

How the results depend on the processing

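The count of members called higher, 0, became 8 with the deposited table, 1 with normexp on the median signals (chosen after seeing the data; the planned version on mean signals was not run), 2 with the replicate block (Hspa12a, and Dnajc5b, which was tested only through its higher group) and 17 with array weights, and was 0 to 6 when each array was left out. The count called lower, 1, became 0 with quantile normalisation (Hspa4 adjusted p = 0.0501 in limma), 0 with no filter on dim probes, 8 with the deposited table, 0 with the replicate block and 14 with array weights, and was 0 to 10 when each array was left out. Blocking on slide left the comparison with saline 3 alone, with changes of -0.82 for Hspb1 and -0.81 for Hspa4, and its calls are not used. Over all genes, array weights called 4663 higher and 4581 lower, leaving out saline 3 called 3007 and 2808, and the deposited table, whose slides share no baseline, called 2205 and 2314, against 405 and 355 as reported. With no filter on dim probes 132 of 22815 genes were called higher and 19 lower, so 0 members there says little. Of 14701 genes, quantile normalisation called 333 higher and 395 lower, normexp 372 and 474, and the replicate block 357 and 242. The replicate block changed no call of another member. Centring on the median of the genes tested put the median of all genes at 0.10 rather than 0.01, left 26 rather than 35 members with a lower mean, and made 64.3% rather than 53.3% of all calls higher. The Hsph change was 0.79 with the deposited table, the median of Hspd1 and Hspe1 was 0.13 with slide blocked, and the Dnajb median was -0.13 with the mean of all probes. The Dnajc median was 0.041 with median centring, 0.11 with the mean of all probes, 0.15 with the deposited table and 0.18 with slide blocked. Leaving out each array gave medians of -0.08 to 0.10 for all members, -0.02 to 0.37 for Hsp90, -0.26 to 0.47 for Hsph, -0.20 to 0.06 for Hspa, -0.33 to 0.14 for Hspb, -0.14 to 0.068 for Dnajb and -0.14 to 0.042 for Dnajc genes. The cause of these shifts was not tested. Of 48 tested members named by rule, 27 changed sign under at least 1 alternative. None of these was called in the fit reported, but some were in others (Hspe1 and Dnajc15 without saline 3 and with array weights), and Hspa4 kept its sign under each. Signals near background limit Dnajc5b and Dnajb3.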
